A study of Mus musculus with 15 samples.

Results

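Kruppel-like factors are a family of transcription factors, and the mRNAs of 8 of them, Klf2, Klf3, Klf4, Klf6, Klf7, Klf9, Klf10 and Klf13, were examined here in mouse bone marrow-derived macrophages (BMDMs). They were picked by gene symbol from 53465 Ensembl identifiers in the count matrix, and all 8 passed the low-count filter that left 13938 genes for testing. BMDMs are macrophages grown from bone marrow cells, here over 7 days with M-CSF at 20 ng/ml, a culture that the labels give for all groups. The cells were then left without further cytokine (control) or were stimulated for 24 h. The 4 stimuli were IL-4 at 10 ng/ml (IL-4), that dose of IL-4 with IL-6 at 40 ng/ml (IL-4+IL-6), IL-13 at 40 ng/ml (IL-13), and that dose of IL-13 with the same IL-6 (IL-6+IL-13). Each of the 5 groups had 3 RNAseq libraries. The labels give no strain, age or genotype. The study speaks of biological replicates without saying whether these were separate animals or cultures, and the p-values measure the spread between these libraries. No library was made from cells given IL-6 alone, so every effect of IL-6 was measured on top of IL-4 or IL-13.

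Kruppel-like factors bind GC-rich elements and CACCC boxes in promoters through C2H2 zinc fingers at their C-terminal end, and differ mostly in the parts that recruit coactivators or corepressors. Klf2 and Klf4 are close relatives that restrain NF-κB-driven inflammation in monocytes and macrophages, and Klf4 acts with STAT6 in the alternative (M2) program that IL-4 and IL-13 induce. Klf6 and Klf7 form another pair, of which Klf6 is known as a partner of NF-κB in inflammatory macrophages. Klf3 is a repressor that recruits CtBP, whereas Klf9, Klf10 and Klf13 recruit the corepressor Sin3a. IL-6 signals through STAT3 and ERK.

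Upstream sequences are shown for Klf4, the member with the largest rise over control, for Klf2, which the 2 IL-6 mixtures took to different levels, and for Klf9, whose mRNA rose with IL-4 and not with IL-13. RefSeq windows of 300 bases (250 before to 50 after the start, GRCm38.p6) were found for 7 of the 8 members, and bases -250 to -31 from the RefSeq start are printed 5′ to 3′ on the strand of the gene, with letters of the searched motifs in capitals. No GENCODE gene or exon overlapped any of these 3 stretches.
Klf2 (chr8:72318812-72319031, plus strand): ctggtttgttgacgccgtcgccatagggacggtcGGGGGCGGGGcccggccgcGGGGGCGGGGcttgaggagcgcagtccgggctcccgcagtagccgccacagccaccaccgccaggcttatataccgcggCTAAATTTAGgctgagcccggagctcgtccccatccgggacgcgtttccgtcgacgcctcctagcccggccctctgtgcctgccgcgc
Klf4 (chr4:55532506-55532725, minus strand): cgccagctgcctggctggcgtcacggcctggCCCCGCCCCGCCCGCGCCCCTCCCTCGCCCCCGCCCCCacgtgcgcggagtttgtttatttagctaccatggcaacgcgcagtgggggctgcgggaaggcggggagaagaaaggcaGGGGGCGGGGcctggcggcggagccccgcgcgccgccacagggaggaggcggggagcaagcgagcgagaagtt
Klf9 (chr19:23140976-23141195, plus strand): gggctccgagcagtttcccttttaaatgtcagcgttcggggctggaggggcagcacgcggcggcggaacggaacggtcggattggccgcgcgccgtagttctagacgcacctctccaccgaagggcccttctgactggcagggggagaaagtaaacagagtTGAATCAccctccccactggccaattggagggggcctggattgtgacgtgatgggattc
The motifs, read on both strands and allowed to overlap, were the CACCC box (CCNCNCCC), the STAT site (TTCNNNGAA), the STAT6 form of it (TTC and GAA with 4 bases between), CRE (TGACGTCA), the AP-1 site (TGANTCA), the TATA box (TATAAA) and the MEF2 site, the last of which was added after the Klf2 window had been read. Matches of the pattern CCNCNCCC stood in the windows of 6 of the 7 members and in 49.5% of 32851 mouse promoter windows. Klf9 had no such match, although its printed stretch holds the letters CACCC themselves. In the Klf2 stretch the matches of CCNCNCCC formed 2 separate blocks, with the MEF2 letters at base -118 after them. MEF2 letters stood in 3.19% of all windows. The capitals of Klf4 were matches of CCNCNCCC in 2 blocks, neither of which spells CACCC on either strand. Klf9 had AP-1 letters at base -89 (7.81% of all windows) and STAT letters (TTCTGCGAA) at base -33, which runs past the printed stretch (8.30% of all windows). Letters of the STAT6 form, of CRE and of the TATA box were found in none of the 7 windows, against 6.95%, 1.79% and 13.6% of all windows. These are matches of letters only.

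The libraries held between 17001352 and 18918686 counted reads. Replicates varied by a biological coefficient of 4.49% (control), 4.54% (IL-4), 14.9% (IL-4+IL-6), 10.9% (IL-13) and 7.39% (IL-6+IL-13), so the IL-4+IL-6 and IL-13 groups were the most variable. Macrophage markers were abundant in every library but shifted between groups. The 8 markers summed to 18935 to 21114 normalized CPM (read counts scaled to the library size with TMM factors) in control. The IL-4 libraries held 14309 to 14780 and the IL-13 libraries 17051 to 19800, and with IL-6 these ranges were 10900 to 12704 (IL-4+IL-6) and 13928 to 14820 (IL-6+IL-13). The sums were thus lower with IL-6 on both backgrounds, without overlap. The control libraries also held markers of other bone marrow cells. The 7 granulocyte markers summed to 336 to 402 CPM in control and to at most 2.04 CPM in any stimulated library, where Ly6g was at 0. The 4 B cell markers summed to 10.2 to 10.8 CPM against at most 1.55, the 4 mast cell and basophil markers to 10.6 to 12.6 against at most 0.221, and the 5 stromal markers to 16.5 to 21.4 against at most 0.375. The 4 megakaryocyte markers summed to 360 to 406 CPM in control, 70.2 to 74.8 in IL-4, 72.6 to 89.7 in IL-13, 175 to 314 in IL-4+IL-6 and 349 to 422 in IL-6+IL-13, so they moved with IL-6 as well. The 5 endothelial markers summed to 22.9 to 27.3 CPM in control and 7.97 to 42.2 in the stimulated libraries. The 5 T cell and 5 erythroid markers stayed at or below 1.18 CPM, and Cd3e was at 0 everywhere. The part of these cells in the results below was not tested. In RNA of mixed cells, fewer cells of a type and less RNA per cell cannot be told apart.

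On the length-corrected FPKM scale, which allows levels of different genes to be compared, Klf6 mRNA was the most abundant member in all groups, and the order of the others depended on the stimulus. The summed FPKM of the 8 genes was 109.5 ± 1.92 (SD, n = 3) in control, 156 ± 0.649 in IL-4, 141 ± 10.8 in IL-4+IL-6, 142 ± 10.8 in IL-13 and 145 ± 8.63 in IL-6+IL-13. The lowest stimulated library, at 129.6 FPKM, lay above the highest control library, at 111 FPKM. Klf6 made up 53.6 ± 0.560% of the control sum and 36.4 ± 0.485% of the IL-4 sum, although its own level was 58.7 and 56.7 FPKM. Klf4 went from 3.75 ± 0.445% of the control sum to 23.6 ± 0.378% in IL-4, 30.1 ± 0.910% in IL-4+IL-6, 13.5 ± 0.249% in IL-13 and 15.9 ± 0.916% in IL-6+IL-13. Klf13 went the other way, from 13.6% in control to between 5.70% and 7.06% in the stimulated groups. The FPKM order in control was Klf6 (58.7), Klf13 (14.9), Klf10 (11.6), Klf3 (7.98), Klf2 (7.70), Klf4 (4.11), Klf9 (3.03) and Klf7 (1.5), where only the neighbors Klf3 and Klf2 overlapped in their libraries. In IL-4 the order was Klf6 (56.7), Klf4 (36.8), Klf10 (28.7), Klf2 (11.8), Klf13 (8.89), Klf3 (7.02), Klf9 (5.30) and Klf7 (0.703), and no neighbors overlapped. With IL-6 added to IL-4, Klf2 dropped from rank 4 to rank 6 at 4.64 FPKM, where its libraries overlapped those of Klf9 (4.01 FPKM). In IL-13, Klf10 (24.5 FPKM) stood above Klf4 (19.2 FPKM), whose libraries overlapped those of Klf2 (17.1 FPKM). In IL-6+IL-13, 3 pairs of neighbors overlapped, namely Klf4 and Klf10 (23.1 and 21.8 FPKM), Klf13 and Klf3 (9.60 and 9.33 FPKM), and Klf9 and Klf7 (1.92 and 1.85 FPKM).

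**Figure D1:**
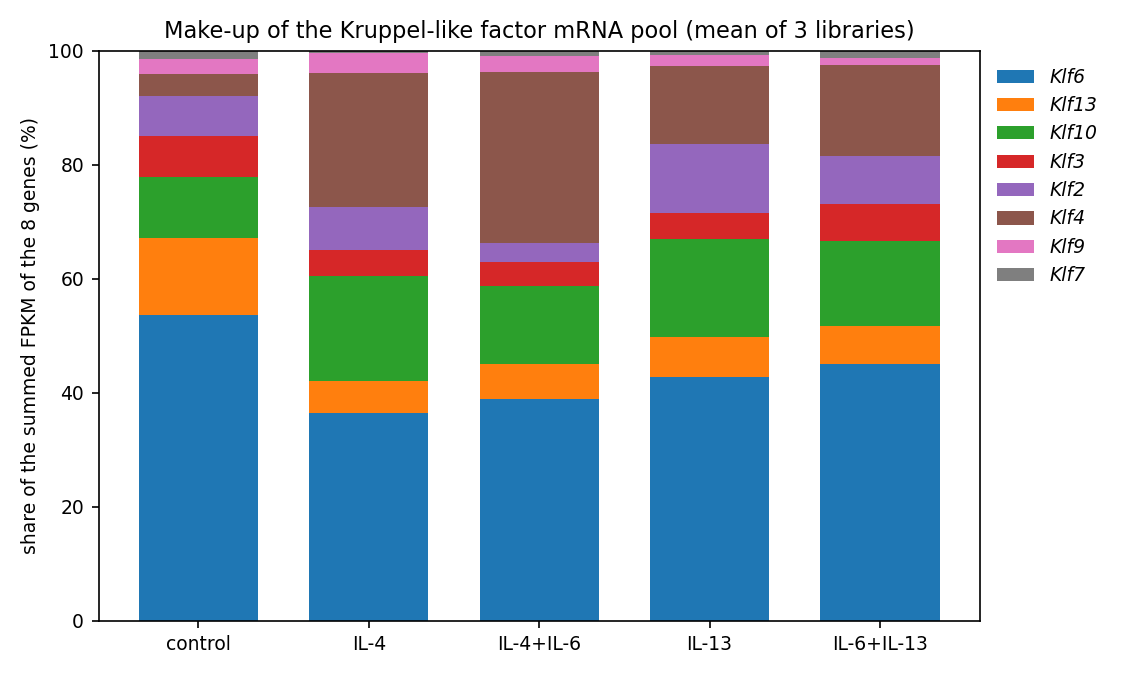
Share of the summed FPKM of the 8 Kruppel-like factor genes (vertical axis, percent) taken by each gene in the 5 groups, as means of 3 libraries. Klf6 shrinks from 53.6% in control to 36.4% in IL-4, and Klf4 grows from 3.75% to 23.6%.

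Members changed in both directions with each stimulus. A gene was called when its Benjamini-Hochberg adjusted p over all tested genes was under 0.05. In IL-4 over control, 6 of the 8 members were called, 4 higher (Klf2, Klf4, Klf9 and Klf10) and 2 lower (Klf7 and Klf13), in a comparison that called 68.0% of all tested genes. In IL-13 over control, 6 were called against 60.1% of all genes, with Klf2, Klf4 and Klf10 higher and Klf3, Klf7 and Klf13 lower. With an absolute log2 fold change above 1 also required, 3 members were called for IL-4 (Klf4, Klf7 and Klf10; 26.1% of all genes) and 3 for IL-13 (Klf2, Klf4 and Klf10; 20.3%). Shares of members near these backgrounds are no result about the family, and the genes are described singly below. The median log2 fold change of the 8 members was 0.33 in IL-4 and 0.03 in IL-13, beside -0.05 and -0.02 over all tested genes. In these comparisons, and in every other value over control, the control libraries also differed in the marker lists given above, and whether control cells were handled like the stimulated cells in all other respects is not known. All 6 tested granulocyte markers and all 4 megakaryocyte markers were lower in both stimulated groups.

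**Figure D2:**
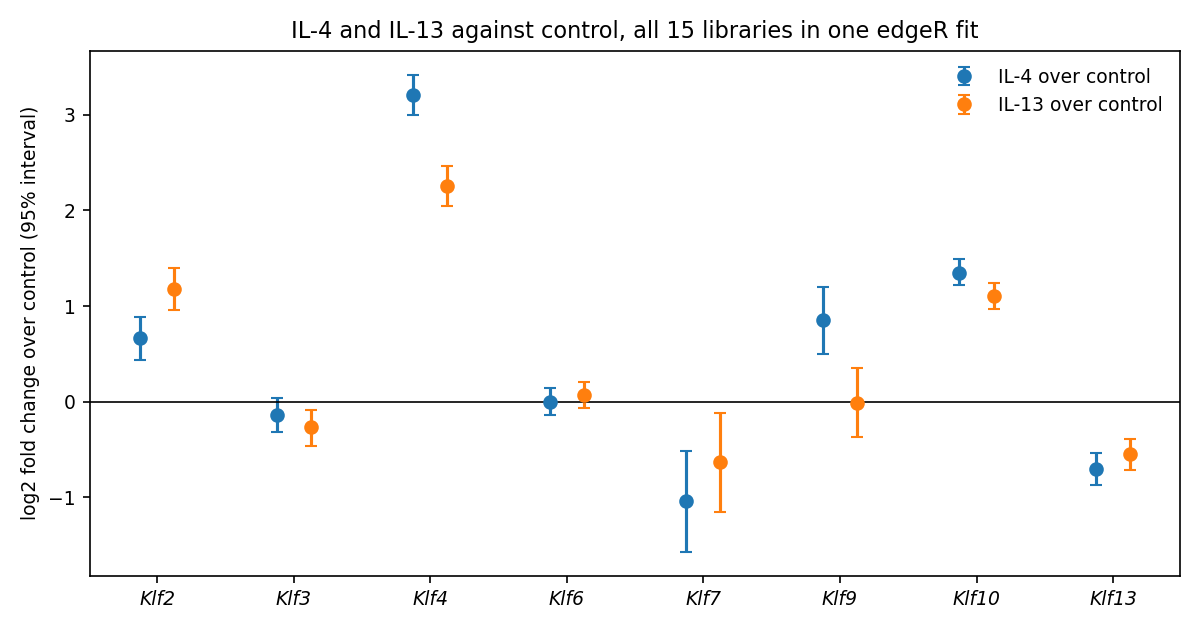
Log2 fold change of each member over control (vertical axis, points with 95% confidence intervals from the edgeR fit) for IL-4 and IL-13. Klf4 stands highest at 3.21 with IL-4 and 2.25 with IL-13, and Klf9 differs from 0 with IL-4 only.

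Klf4 mRNA rose most. Its normalized CPM was 10.5, 12.2 and 13.2 in the control libraries, 112, 111 and 109 in IL-4, and 52.7, 58.7 and 60.1 in IL-13. The 3 groups did not overlap, and IL-4 at its dose was highest. The log2 fold change over control was 3.21 (SE 0.0991, adjusted p = 4.89e-14), or 9.24-fold, with IL-4, and 2.25 (SE 0.0983, adjusted p = 5.83e-12), or 4.77-fold, with IL-13. With IL-6 added, the libraries read 137, 128 and 145 CPM beside IL-4 and 66.5, 80.9 and 68.9 CPM beside IL-13, each group above the one without IL-6 and without overlap. These further rises were small, with log2 fold changes of 0.30 (SE 0.0853, adjusted p = 0.00883) on IL-4 and 0.33 (SE 0.0876, adjusted p = 0.00838) on IL-13. The first was lost under upper-quartile normalization (0.22, adjusted p = 0.0555) and without IL-4 replicate 3 (adjusted p = 0.0545), and the second without IL-6+IL-13 replicate 2 (0.24, adjusted p = 0.0712). The effects of IL-6 on the 2 backgrounds differed by -0.03 (95% interval -0.29 to 0.23).

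Klf2, the closest relative of Klf4 among the members, took a different course. Its CPM was 13.3, 13.6 and 14 in control, 21.0, 23.2 and 20.7 in IL-4, and 33.2, 28.2 and 31.2 in IL-13. It was thus higher with IL-13 than with IL-4, the reverse of Klf4, with no overlap. Log2 fold changes over control were 0.67 (SE 0.105, adjusted p = 2.86e-05) for IL-4 and 1.18 (SE 0.104, adjusted p = 3.70e-08) for IL-13. When IL-6 was added to IL-4, Klf2 fell to 8.85, 10.8 and 7.72 CPM, below every control library. This was 2.37-fold lower than IL-4 alone (log2 fold change -1.25, SE 0.110, adjusted p = 6.13e-08) and 1.5-fold lower than control (log2 fold change -0.58, adjusted p = 0.000187). When IL-6 was added to IL-13, Klf2 read 23.1, 23.5 and 23.3 CPM, which was lower than IL-13 alone (log2 fold change -0.41, SE 0.1, adjusted p = 0.00558) but still 1.71-fold above control (adjusted p = 5.58e-06). The 2 mixtures therefore lay on opposite sides of control, and the level in IL-4+IL-6 was 2.56-fold lower than that in IL-6+IL-13 (adjusted p = 5.40e-08).

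**Figure D3:**
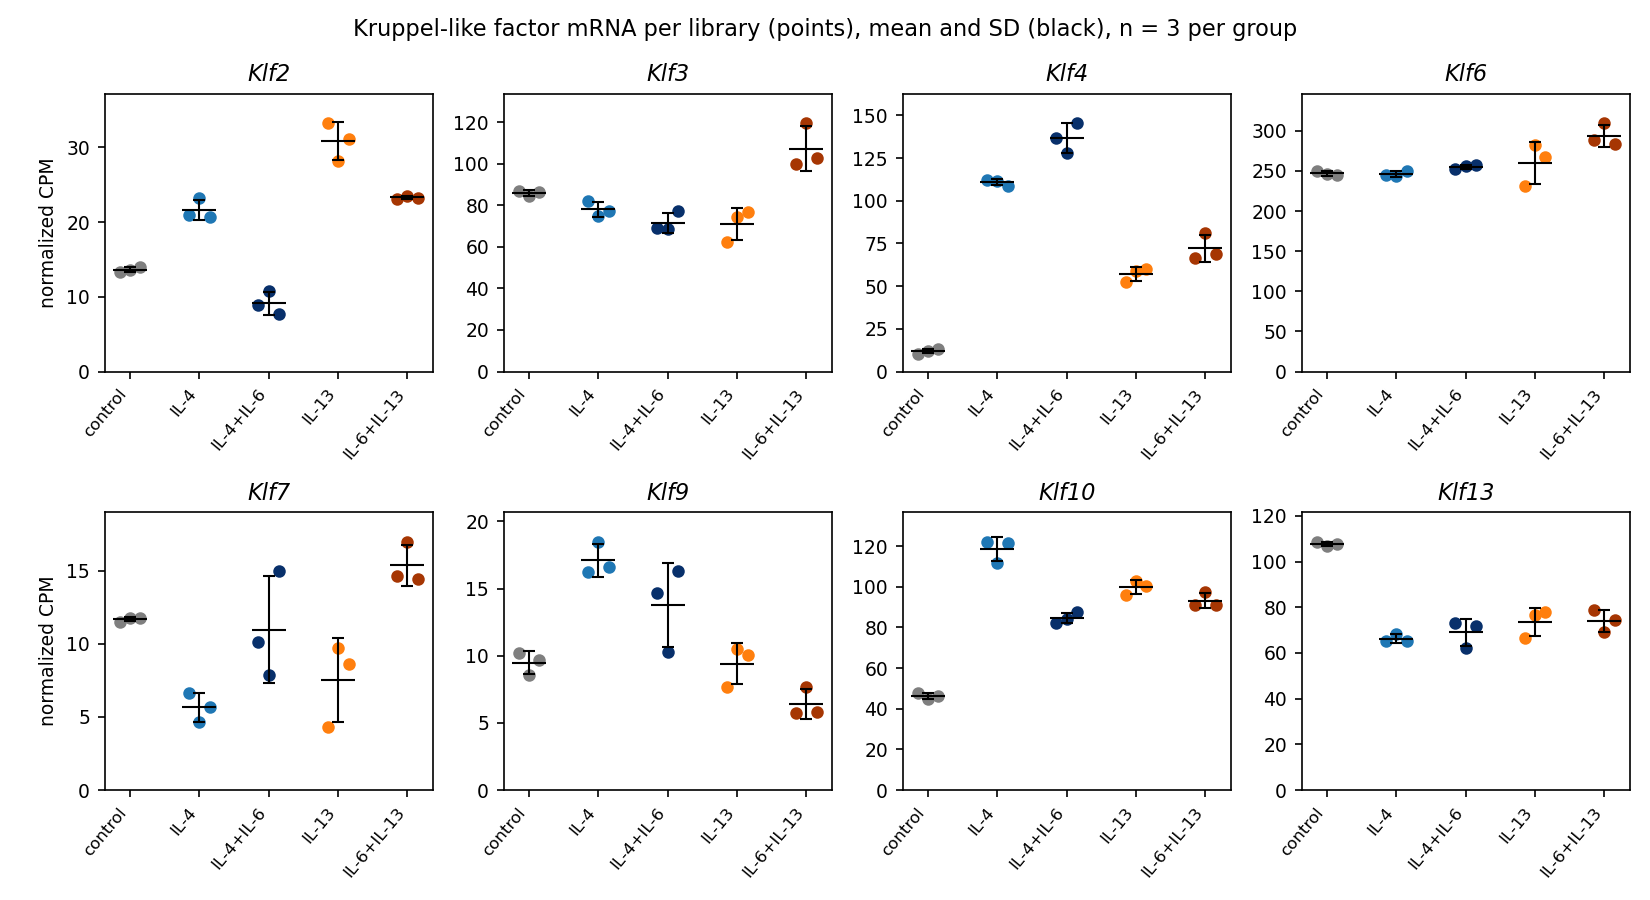
Normalized CPM (vertical axes, from 0) of each member in the 15 libraries (points) with the mean and SD of the 3 libraries of each group (black). Klf4 rises in all stimulated groups, Klf2 in IL-4+IL-6 lies at 7.72 to 10.8 CPM below the control libraries, and Klf7 in IL-13 is spread from 4.28 to 9.74 CPM.

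Klf6, the most abundant member, changed little between groups. Its CPM was 250.2, 246 and 244 in control, 244, 244 and 249.99 with IL-4 alone, 252, 256 and 257 in IL-4+IL-6, 231, 282 and 267 in IL-13, and 289, 309 and 284 in IL-6+IL-13. The control and IL-4 libraries overlapped, and the IL-6+IL-13 libraries were above all others. The log2 fold change of IL-4 over control had a 95% interval of -0.14 to 0.14, and that of IL-13 over control one of -0.07 to 0.21. Without IL-13 replicate 1 the latter comparison called Klf6 (0.19, adjusted p = 0.0138, against 0.07 with all libraries). Against control it rose in IL-6+IL-13, by 0.25 on the log2 scale (SE 0.0662, adjusted p = 0.00319). The addition of IL-6 to IL-13 gave 0.18 (adjusted p = 0.0610), which DESeq2 called (0.17, adjusted p = 0.0428), as did 3 other alternatives.

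Klf7, the partner of Klf6 and the least abundant member, moved with IL-6. It was at 11.5, 11.7 and 11.8 CPM in control and 6.64, 4.65 and 5.68 CPM in IL-4, from 84 to 221 reads in a library. The groups did not overlap, and the log2 fold change was -1.04 (SE 0.250, adjusted p = 0.00143). In IL-13 the libraries read 4.28, 9.74 and 8.60 CPM, all below control, with a log2 fold change of -0.63 (SE 0.243, adjusted p = 0.0334). That call was marginal. Without IL-13 replicate 1, the lowest library, the log2 fold change was -0.32 (adjusted p = 0.211). The call was also lost in 7 other omissions of single libraries, among them each control library. With IL-6, Klf7 stood at 10.1, 7.84 and 15 CPM beside IL-4 and at 14.6, 17 and 14.5 CPM beside IL-13. The rises over the groups without IL-6 were 1.94-fold (log2 fold change 0.95, SE 0.252, adjusted p = 0.00577) and 2.04-fold (log2 fold change 1.03, SE 0.240, adjusted p = 0.00373), and the libraries did not overlap in either. Against control, IL-4+IL-6 overlapped (log2 fold change -0.09, 95% interval -0.59 to 0.41), and IL-6+IL-13 was not called (0.40, adjusted p = 0.145), although 4 alternatives called it with values up to 0.49.

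Klf3, the CtBP-dependent repressor, changed little with IL-4 or IL-13 alone. Its CPM was 87.0, 84.3 and 86.5 in control, 82.1, 74.7 and 77.3 in IL-4, and 62.2, 74.3 and 76.8 in IL-13. The log2 fold change over control was -0.14 for IL-4 (adjusted p = 0.164) and -0.27 for IL-13 (SE 0.0867, adjusted p = 0.0119). The fall in IL-13 was no longer called without IL-13 replicate 1 (-0.15, adjusted p = 0.147) or with trends of GC content and gene length removed (-0.12, adjusted p = 0.0866). With IL-6 the 2 backgrounds parted. Klf3 read 69.2, 68.5 and 77.3 CPM in IL-4+IL-6, which overlapped IL-4 (log2 fold change -0.12, adjusted p = 0.287). It read 99.7, 119.5 and 103 CPM in IL-6+IL-13, above all other libraries, and rose 1.51-fold over IL-13 (log2 fold change 0.60, SE 0.0866, adjusted p = 4.57e-05). IL-4+IL-6 was below control by a log2 fold change of -0.26 (adjusted p = 0.0124), a call that was lost without IL-4+IL-6 replicate 1 (-0.22, adjusted p = 0.0656), without replicate 2 of that group (-0.20, adjusted p = 0.0578) and with the GC and length trends removed (-0.01, adjusted p = 0.904).

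Among the Sin3a-recruiting repressors, Klf10, a gene first known for its early induction by TGF-β, rose with both cytokines. Its CPM was 47.8, 44.8 and 46.3 in control, 122, 112 and 122 in IL-4, and 95.9, 103 and 100.4 in IL-13. None of these groups overlapped, and log2 fold changes over control were 1.35 (SE 0.0632, adjusted p = 8.02e-12) for IL-4 and 1.11 (SE 0.0631, adjusted p = 1.49e-10) for IL-13. Beside IL-4, IL-6 lowered Klf10 to 82.3, 84.0 and 87.5 CPM, by a log2 fold change of -0.49 (SE 0.0616, adjusted p = 5.41e-06). Beside IL-13 it read 91.1, 97.4 and 91.1 CPM, which overlapped IL-13 alone (log2 fold change -0.10, 95% interval -0.23 to 0.03). Both mixtures stayed above control, by 1.83-fold and 2.01-fold.

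Klf9, a gene induced by glucocorticoid and thyroid hormones, was the member whose mRNA rose with IL-4 and not with IL-13. Its CPM was 10.2, 8.53 and 9.65 in control, 16.2, 18.5 and 16.6 in IL-4, and 7.66, 10.5 and 10.0 in IL-13. The IL-4 libraries stood above all others of these groups, whereas control and IL-13 overlapped. The log2 fold change over control was 0.85 (SE 0.165, adjusted p = 0.000220) for IL-4 and -0.01 (95% interval -0.37 to 0.35) for IL-13, and IL-4 exceeded IL-13 by 0.86 (SE 0.165, adjusted p = 0.00166). With IL-6, the libraries read 14.7, 10.3 and 16.3 CPM beside IL-4 and 5.73, 7.70 and 5.84 CPM beside IL-13. The first overlapped IL-4 (log2 fold change -0.31, adjusted p = 0.136), but was called without IL-4+IL-6 replicate 3 (-0.47, adjusted p = 0.0333). The second was called lower than IL-13 (log2 fold change -0.55, SE 0.177, adjusted p = 0.0293) in spite of an overlap of 1 library in each group, and this call was lost in 4 omissions of single IL-13 or IL-6+IL-13 libraries (adjusted p up to 0.111). It was also lower than control (-0.56, adjusted p = 0.0110), which was lost without IL-6+IL-13 replicate 1 (adjusted p = 0.0648) or replicate 3 (adjusted p = 0.0603). The 2 mixtures differed by 1.10 on the log2 scale, 2.14-fold higher in IL-4+IL-6 (adjusted p = 0.000115).

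Klf13, known in T cells as an activator of Ccl5, fell with every stimulus to a like level. Control read 109, 107 and 108 CPM, and the 12 stimulated libraries lay between 62.3 and 78.6 CPM, with no overlap. Log2 fold changes over control were -0.70 (SE 0.0769, adjusted p = 4.19e-07) in IL-4, -0.55 (SE 0.0765, adjusted p = 9.36e-06) in IL-13, -0.64 in IL-4+IL-6 and -0.54 in IL-6+IL-13. IL-6 moved it by 0.06 on IL-4 (95% interval -0.10 to 0.22) and by 0.01 on IL-13 (95% interval -0.16 to 0.17).

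The addition of IL-6 called 4 of 8 members on IL-4 (39.4% of all tested genes) and 5 of 8 on IL-13 (25.6%). On IL-4, Klf4 and Klf7 rose and Klf2 and Klf10 fell. On IL-13, Klf3, Klf4 and Klf7 rose and Klf2 and Klf9 fell. An absolute log2 fold change above 1 was reached by Klf2 alone on IL-4, where 11.8% of all genes passed both limits, and by Klf7 alone on IL-13, where 7.25% did. Over control, the mixtures called 6 members in IL-4+IL-6 (72.9% of all genes) and 7 in IL-6+IL-13 (64.0%). Among the marker lists, 3 of 8 macrophage markers rose and 5 fell with IL-6 on IL-4, and 3 rose and 2 fell on IL-13, while 2 of 4 megakaryocyte and 2 of 3 tested endothelial markers rose with IL-6 on both backgrounds. Of the granulocyte markers, edgeR called 0 of the 6 tested (0 and 1 at an unadjusted p under 0.05). Their part in the changes of the members was not tested. A fit without the control libraries gave the same numbers of called members, 4 and 5.

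The effect of IL-6 itself differed between IL-4 and IL-13 for 3 of 8 members, against 7.64% of all tested genes. The difference (effect on IL-4 minus effect on IL-13, log2) was -0.84 (SE 0.148, adjusted p = 0.00130) for Klf2, -0.72 (SE 0.123, adjusted p = 0.00100) for Klf3 and -0.39 (SE 0.0869, adjusted p = 0.00879) for Klf10. All 3 were negative, so IL-6 left less of these mRNAs beside IL-4 than beside IL-13 relative to each cytokine alone. These calls held in each of the 23 alternatives. For the other 5 members the difference was not called, and its 95% interval ran from -0.29 to 0.23 for Klf4, from -0.32 to 0.07 for Klf6, from -0.81 to 0.67 for Klf7, from -0.27 to 0.74 for Klf9 and from -0.18 to 0.28 for Klf13.

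**Figure D4:**
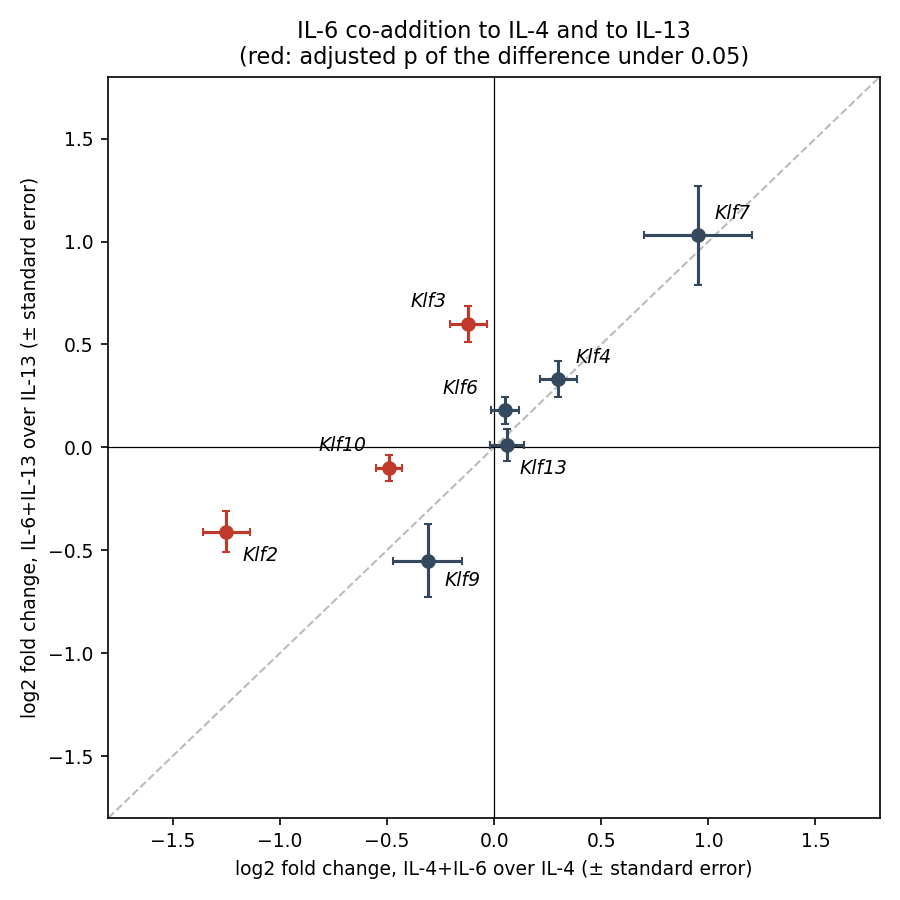
Log2 fold change on addition of IL-6 to IL-4 (horizontal axis) and to IL-13 (vertical axis) for each member, with standard errors and the line of equal effects (dashed). Klf2, Klf3 and Klf10 (red) lie off the line with differences of -0.84, -0.72 and -0.39, and Klf7 and Klf4 lie in the upper right.

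IL-4 at 10 ng/ml and IL-13 at 40 ng/ml share a receptor chain, and their doses differed 4-fold, so cytokine and dose cannot be told apart here. Of the members, 4 differed between them (12.8% of all tested genes). Klf4 (log2 fold change of IL-4 over IL-13 0.96, adjusted p = 7.88e-07), Klf9 (0.86) and Klf10 (0.25, SE 0.0612, adjusted p = 0.0116) were higher with IL-4, and Klf2 was higher with IL-13 (-0.51, SE 0.1, adjusted p = 0.00199). The call of Klf10 was lost without IL-4 replicate 1 (0.23, adjusted p = 0.0615) or replicate 3 (0.23, adjusted p = 0.0584). Klf7 was called lower with IL-4 without IL-13 replicate 1 (-0.69, adjusted p = 0.0344, against -0.41 with all libraries), and Klf3 higher with the GC and length trends removed (0.25, adjusted p = 0.00896, against 0.13). Between the mixtures, 5 members differed (31.3% of all genes). Klf4 (0.92) and Klf9 (1.10) were higher in IL-4+IL-6, whereas Klf2 (-1.35), Klf3 (-0.58) and Klf6 (-0.21) were higher in IL-6+IL-13. The small difference of Klf6 was lost in 3 alternatives (adjusted p up to 0.0990). Klf7 (-0.49) was not called, but was with no low-count filter (-0.51, adjusted p = 0.00408), without IL-4+IL-6 replicate 3 (-0.79, adjusted p = 0.0122) and without IL-13 replicate 1 (-0.49, adjusted p = 0.0443).

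Other genes of the pathways were taken from lists. Of 18 other KLF and SP family genes, which bind related GC-rich elements, 8 were abundant enough to test. In both IL-4 and IL-13 over control, 2 of them rose and 6 fell, in comparisons that called 68.0% and 60.1% of all tested genes. Their median log2 fold change was -0.51 and -0.40, beside -0.05 and -0.02 over all tested genes. With IL-6 on IL-4, Klf11, a close relative of Klf10, fell from 7.21 to 2.38 CPM (log2 fold change -1.60, SE 0.197, adjusted p = 3.69e-06), Sp4 and Sp1 fell by 0.78 and by 0.38 on the log2 scale, and Sp3 rose by 0.22 (adjusted p = 0.0394), which upper-quartile normalization and most other settings did not call. On IL-13, Klf11 fell by 0.78 (adjusted p = 0.00316) and Sp3 rose by 0.39 (adjusted p = 0.00112).

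Among 12 corepressors, coactivators and ubiquitin ligases that act on Kruppel-like factors, IL-6 on IL-4 raised 3 and lowered 1, a share of the list no higher than the 39.4% of all tested genes called. Fbxw7, a ubiquitin ligase subunit, rose by 0.47 (SE 0.0878, adjusted p = 0.000342), Wwp1, another ubiquitin ligase, by 0.39 (adjusted p = 0.00234) and the acetyltransferase Kat2b by 0.37 (adjusted p = 0.00198), all on the log2 scale. Sin3a, the corepressor of Klf9, Klf10 and Klf13, fell by 0.25 (adjusted p = 0.0179). IL-6 on IL-13 changed 0 of the 12 at an adjusted p under 0.05 with edgeR, where 25.6% of all tested genes were called. Of the 12, 0 had an unadjusted p under 0.05 and DESeq2 called 0, while 1 was called with the GC and length trends removed. Wwp1 itself was lower than control with IL-4 (137 against 341 CPM, log2 fold change -1.31, adjusted p = 1.42e-09) and with IL-13 (log2 fold change -0.67, adjusted p = 7.02e-06).

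The ERK5 and MEF2 genes stand upstream of Klf2 and Klf4 in endothelial cells. Of 7 such genes, IL-6 on IL-4 lowered 2 and raised 1, a share near the 39.4% of all tested genes. Mef2c, a MEF2 transcription factor, averaged 73.0 CPM in control, and with IL-4 it stood at 98.0 CPM without IL-6 and at 30.1 CPM with it (log2 fold change on addition of IL-6 -1.70, SE 0.110, adjusted p = 1.22e-09), and on IL-13 it went from 105 to 76.8 CPM (log2 fold change -0.45, SE 0.105, adjusted p = 0.00378). Mef2a fell by 0.47 on IL-4 and by 0.24 on IL-13, on the log2 scale. Map3k2, a kinase at the head of the ERK5 cascade, rose by 0.42 on IL-4 (adjusted p = 0.00729).

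Of 6 glucocorticoid-responsive genes, listed because Klf9 is one too, 4 fell with IL-6 on either background, against 39.4% of all tested genes called in both directions together on IL-4 and 25.6% on IL-13. Fkbp5 went from 49.0 to 20.5 CPM on IL-4 (log2 fold change -1.26, adjusted p = 7.72e-10) and from 46.5 to 26.9 CPM on IL-13 (log2 fold change -0.79, adjusted p = 4.16e-07). Sgk1 fell by 1.15 and by 0.87, and Dusp1 by 1.09 and by 0.53, on the log2 scale. Zbtb16 was at most at 2.17 CPM on average. Of 10 TGF-β-responsive genes, listed because of Klf10, 4 rose and 4 fell on IL-4, and 3 rose and 5 fell on IL-13, beside the same 39.4% and 25.6% of all tested genes. Tgfbi, an extracellular matrix protein, rose from 955 to 2870 CPM on IL-4 (log2 fold change 1.59, adjusted p = 1.80e-11), while Id3, Tgif1 and Smad7 fell by 1.21, 0.87 and 0.80 on the log2 scale.

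Of 11 genes known as KLF2 or KLF4 targets, 10 were tested, and IL-6 on IL-4 raised 5 and lowered 5, in the comparison that called 39.4% of all tested genes. The M2 genes Mrc1 (996 to 8717 CPM, log2 fold change 3.13, SE 0.108) and Chil3 (548 to 1542 CPM, log2 fold change 1.49, SE 0.0694) rose, with adjusted p of 3.37e-13 and 1.72e-11. Over the same addition Klf2 fell by 1.25 on the log2 scale, and Klf4 rose by 0.30, a call lost under upper-quartile normalization as given above.

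The profiles of the members over the 5 groups were unlike each other. The distance used was the root mean square difference of the centered group means in log2 CPM, among 12049 genes with a mean of at least 1 CPM. Klf3 and Klf6 were nearest to each other among the members, at 0.164. Klf10 was the member nearest to Klf2, at 0.562, and to Klf4, at 0.869. The genes nearest to Klf4 were Dhrs9 (0.186) and Srm (0.188), and those nearest to Klf2 were Ckb (0.111) and Tnfrsf11a (0.124), the receptor of the osteoclast cytokine RANKL. For Klf9 they were Pdgfa (0.134) and Hivep3 (0.151), for Klf10 Rccd1 (0.0651) and Slc25a25 (0.0675), and for Klf7 C130050O18Rik (0.0981) and Slc31a1 (0.0999). Klf3 was nearest to Acsl1 (0.0784) and Myh10 (0.0788), Klf6 to Plcb3 (0.0178) and Brpf1 (0.0184), and Klf13 to Usp12 (0.0248). The small distances of Klf6 and Klf13 go with their small changes among the stimulated groups.

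The members lie on 8 chromosomes of GRCm38: Klf2 on chr8:72319033-72321656, Klf3 on chr5:64803388-64832901, Klf4 on chr4:55527143-55532466, Klf6 on chr13:5861482-5870394, Klf7 on chr1:64029447-64122282, Klf9 on chr19:23141226-23168134, Klf10 on chr15:38291463-38300706 and Klf13 on chr7:63886351-63938915. Genes with exons overlapping those of Klf3 (Gm20033) and Klf7 (Gm13748 and Gm26649) on the opposite strand had at most 13, 4 and 0 reads in a library, and because the strand setting of the counting is not known their reads cannot be told apart from those of the members.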

How the data were processed

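RNA of 15 BMDM libraries was sequenced by a service company. Per the labels, the reads were placed on GRCm38, and the submitters' processing notes name CASAVA, Bowtie2 2.2.3, HISAT2 2.1.0, TopHat2 and DESeq2 without their roles. The counting tool, annotation and strand setting are not given in the sources used here. The deposited values were raw read counts for each Ensembl gene, which the authors had not normalized, and FPKM values per library, which equal the count divided by a gene length and the summed count of the library.

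Symbols and positions were taken from GENCODE M21 (GRCm38) and upstream sequences from RefSeq (GRCm38.p6). Counts were filtered with filterByExpr (minimum count 10, 13938 genes), scaled with TMM factors and fitted over all 15 libraries with edgeR 4.0.16 in R 4.3.3 (quasi-likelihood F-test, Benjamini-Hochberg adjustment over all tested genes) for 9 comparisons. Normalized CPM use the TMM factors. FPKM served for comparing genes. The members and gene lists were chosen with earlier results of these data known. Besides the 8 members, up to 4 called genes changed most by IL-6 on IL-4 were named from each list, and the 2 genes nearest in profile to each member. Some genes that this rule selects are not reported here.

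Alternatives were DESeq2 1.42.0, upper-quartile normalization, no low-count filter, a minimum count of 50, a replicate block, only the groups compared, and omission of each library. A fit without the control libraries and offsets for trends of GC content and gene length (5 degrees of freedom each) were added after seeing the data. Klf7 had 80 to 313 reads in a library and Klf9 99 to 334, the lowest ranges among the members.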

Additional observations from a re-analysis of the deposited data

Results flagged for a closer look

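For 3 members the effect of IL-6 differed between the 2 cytokine backgrounds by the test of the difference itself in the edgeR fit. For Klf2 the difference in log2 fold change was -0.84 (adjusted p = 0.00130), since IL-6 lowered it by 1.25 on the log2 scale beside IL-4 and by 0.41 beside IL-13. For Klf3 it was -0.72 (adjusted p = 0.00100), with -0.12 beside IL-4 and 0.60 beside IL-13. For Klf10 it was -0.39 (adjusted p = 0.00879), with -0.49 beside IL-4 and -0.10 beside IL-13. IL-4 and IL-13 were given at different doses, so cytokine and dose cannot be told apart in these differences.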

How the results depend on the processing

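Of 1624 values of single members under the alternatives, 1582 stayed on the same side of the threshold, 27 lost the call and 15 gained it. The sign changed in 57 of the 1582, over 11 combinations of member and comparison, and 0 of these were called before or after. Under upper-quartile normalization 0 members passed the fold limit in IL-6+IL-13 over IL-13, and in the fit of only the groups compared 2900 genes were called in IL-4+IL-6 over IL-6+IL-13, against 4368. With single libraries left out, the members called were 2 to 3 past the fold limit in IL-4 over control, 1 to 2 for IL-6 on IL-4 and 0 to 1 for IL-6 on IL-13, and the genes called in IL-4 over IL-13 were 1088 to 2915. The count past the fold limit for IL-6 on IL-4 was 2 without IL-4 replicate 1 or IL-4+IL-6 replicate 2, and that for IL-6 on IL-13 was 0 without IL-13 replicate 1 or IL-6+IL-13 replicate 2. In IL-4 over IL-13, 2915 genes were called without IL-13 replicate 1 and 2865 without IL-4+IL-6 replicate 2, against 1779 with all libraries, and 1088 to 1167 without IL-13 replicate 2 or 3 or IL-4 replicate 2 or 3. Same-numbered replicates of different groups did not deviate together (correlations of deviations from -0.276 to 0.163, 3 of 30 pairs over 0.1), so the numbers were not taken as pairs. A replicate block left the numbers of called members as they were (6 in IL-4 over control, 4 for IL-6 on IL-4) and called 5228 genes for IL-6 on IL-4, against 5488. The causes of these shifts were not tested.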

Other observations

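Several relatives of the members stayed below the filter. The highest count in any library was 10 for Klf15, 8 for Klf5, 5 for Klf1, 3 for Sp7, 2 for Klf12 and 1 for Klf14 and Sp9, and Klf17, Sp5 and Sp6 had 0. Among the tested relatives, Klf16 and Klf8, named after their values were seen, moved in opposite directions. Klf16 rose from 10.7 CPM in control to 32.5 CPM in IL-4 (log2 fold change 1.60, SE 0.0972, adjusted p = 2.25e-10) and to 29.4 CPM in IL-13 (log2 fold change 1.46, SE 0.0974, adjusted p = 1.10e-09). Klf8 fell from 6.14 CPM in control to 2.47 CPM in IL-4 (log2 fold change -1.31, SE 0.211, adjusted p = 3.56e-05) and to 2.91 CPM in IL-13 (log2 fold change -1.07, SE 0.207, adjusted p = 0.000253).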
